A study of Homo sapiens with 8 samples.

Results

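Aminoacyl-tRNA synthetases are the enzymes that join each amino acid to its own transfer RNA. The list held 38 genes, which are 19 cytosolic synthetase genes, 16 mitochondrial synthetase genes and 3 genes for scaffold proteins of the multi-synthetase complex. Each gene was measured by the brightest array probe set (a group of probes reported as 1 value) annotated to that gene alone. Such a probe set existed for 35 of the 38 genes, of 17958 genes with one on the array: all 19 cytosolic synthetases, 15 of the 16 mitochondrial ones and 1 of the 3 scaffold proteins (AIMP1). SARS2, AIMP2 and EEF1E1 had none and have no value in the comparisons. All 35 measured genes passed the filter on low signal (a mean log2 signal of at least 4.37), so none was lost to it.

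The cells were HEL, a human erythroleukaemia line, and 8 Affymetrix arrays were hybridised, each from 150 ng of total RNA. There were 4 groups of 2 arrays: cells given 0.5 µM LY2784544, a JAK2 kinase inhibitor, cells given 20 µM GRN163L, a telomerase inhibitor, cells given LY2784544 and GRN163L together (the combination, for which the labels restate no doses), and control cells given only the vehicle DMSO. All cells were harvested at 48 h. Each group had 1 array in each of 2 separately conducted experiments, all on this 1 cell line, and p-values measure the spread between these arrays. The erythroid and megakaryocytic genes GATA1, TAL1, KLF1, NFE2 and ITGA2B had mean log2 signals of 10.4, 10.2, 9.21, 10.3 and 11.2, while CD3E, CD14 and ALB, markers of T cells, monocytes and hepatocytes, lay at 3.46, 3.54 and 3.46, below the filter. The fibroblast marker COL1A1 lay above it, at 5.31.

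Each amino acid has its synthetase in the cytosol, and most have a separate one, encoded by another nuclear gene, for protein synthesis inside mitochondria. In animal cells 7 of the cytosolic genes encode enzymes held in the multi-synthetase complex (EPRS1, IARS1, KARS1, LARS1, MARS1, QARS1 and RARS1), and the other 12 encode free enzymes or their subunits. GARS1 and KARS1 also encode the mitochondrial enzyme of their amino acid. When uncharged transfer RNA accumulates or other stresses phosphorylate the initiation factor eIF2, translation of the transcription factor ATF4 rises, and ATF4 is known to increase transcription of many cytosolic synthetase genes through a composite C/EBP-ATF element.

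The promoters were read for the core letters of that element, TGATGNAA, or TTNCATCA when read on the other strand, in the 300 bases from 250 before to 50 after each gene's transcription start in RefSeq (build GRCh38.p14). Promoters of 33 of the 38 genes were in the table used, and LARS1, VARS1, YARS1, AARS2 and VARS2 were not. At the first listed start, 6 of 16 cytosolic genes (37.5%) held the core, which were AARS1, CARS1, IARS1, MARS1, NARS1 and TARS1. Of the 14 mitochondrial genes, 1 (7.1%, YARS2) held it, and none of the 3 scaffold genes did. The core was in 1003 of all 27305 promoters in the table (3.7%) and in 350 of the 13864 whose genes had their own probe set on the array (2.5%). Over any listed start, the share was 7 of 16 cytosolic genes (43.8%), with GARS1 added through its second listed start, 1 of 14 mitochondrial genes (7.1%) and 4.5% of all genes. A match describes letters in this window and does not show that a protein binds there.

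The stretches around the cores of the 7 cytosolic genes are shown because they include 4 of the 5 synthetases with the smallest p-values for LY2784544. Each line is 28 bases from RefSeq, 5′ to 3′ on the gene's own strand, with the 8-base core in capitals:
CARS1 (chr11:3057408-3057435, minus strand): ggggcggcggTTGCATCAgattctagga
MARS1 (chr12:57488054-57488081, plus strand): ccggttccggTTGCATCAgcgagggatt
AARS1 (chr16:70289676-70289703, minus strand): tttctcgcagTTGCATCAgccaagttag
IARS1 (chr9:92293693-92293720, minus strand): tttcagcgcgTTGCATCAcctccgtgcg
NARS1 (chr18:57621805-57621832, minus strand): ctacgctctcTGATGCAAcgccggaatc
TARS1 (chr5:33440957-33440984, plus strand): cgcctttcgaTTGCATCAgctggtccag
GARS1 (chr7:30594835-30594862, plus strand): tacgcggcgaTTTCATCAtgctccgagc
Relative to the transcription start, with bases before it counted as negative, the first base of the core lay at -2 in CARS1, -4 in MARS1, -13 in IARS1 and -33 from the second listed start of GARS1. It lay at -187 in AARS1 and after the start in NARS1 and TARS1, at 14 and 2. CARS1 and AARS1 carry the same 8 letters, TTGCATCA, as IARS1, MARS1 and TARS1. WARS1, which had the largest change of any synthetase, had no such letters in its windows.

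The whole 300-base windows of CARS1, cysteinyl-tRNA synthetase, and MARS1, the methionyl enzyme, are shown because they had the smallest p-values among the genes with a core at the first listed start. In each line, read 5′ to 3′ on the gene's strand, the core is in capitals and the last 50 bases lie after the start:
CARS1 (chr11:3057374-3057673, minus strand): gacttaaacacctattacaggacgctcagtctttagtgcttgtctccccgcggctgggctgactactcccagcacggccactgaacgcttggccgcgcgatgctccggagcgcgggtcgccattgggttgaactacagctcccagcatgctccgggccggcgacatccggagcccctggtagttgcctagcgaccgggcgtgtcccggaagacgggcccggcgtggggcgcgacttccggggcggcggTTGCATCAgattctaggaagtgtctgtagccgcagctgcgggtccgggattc
MARS1 (chr12:57487818-57488117, plus strand): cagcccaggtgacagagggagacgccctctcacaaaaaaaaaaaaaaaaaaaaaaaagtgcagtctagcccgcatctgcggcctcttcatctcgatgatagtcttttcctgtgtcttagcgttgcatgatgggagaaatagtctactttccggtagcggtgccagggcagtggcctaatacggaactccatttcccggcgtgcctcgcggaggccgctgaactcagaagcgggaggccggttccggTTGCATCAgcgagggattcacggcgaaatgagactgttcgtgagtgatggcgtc

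Against control cells, cells given LY2784544 had more transcript of a subset of cytosolic synthetases and less of several mitochondrial ones, but no single gene passed the test over all genes. WARS1, tryptophanyl-tRNA synthetase, which is also known as an interferon-gamma-induced gene, showed the largest difference. On the log2 RMA scale (background-corrected, quantile-normalized array signal), where 1 unit is a 2-fold difference, WARS1 read 11.36 and 10.54 in experiments 1 and 2 under LY2784544, 10.84 and 10.94 under GRN163L, 11.17 and 10.38 under the combination, and 9.74 and 9.31 in control cells. Every treated array lay above both control arrays. Its log2 change with LY2784544 was 1.43 (SE 0.325, 2.69-fold), with an adjusted p of 0.0876 in limma's moderated test with Benjamini-Hochberg adjustment over 12570 genes. The experiments were paired by their labels, and with the experiment as a replicate block the adjusted p of WARS1 was 0.0177, and in that fit WARS1 rose. In bulk RNA, more cells with a transcript and more transcript per cell cannot be told apart.

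CARS1 read 8.37 and 8.10 under LY2784544, 7.73 and 8.18 under GRN163L, 8.14 and 7.98 under the combination, and 7.43 and 7.25 in control cells. All 6 treated arrays again lay above both control arrays. For LY2784544 its log2 change was 0.90 (SE 0.197, 1.86-fold, limma adjusted p 0.0805, and 0.0530 with the replicate block), which did not pass in either fit. AARS1, the alanyl enzyme, read 11.25 and 10.99 under LY2784544, 10.92 and 10.92 under GRN163L, 10.93 and 10.72 under the combination, and 10.58 and 10.38 in control cells. GARS1, the glycyl enzyme, read 11.45 and 11.38 under LY2784544, 11.12 and 11.34 under GRN163L, 11.27 and 11.30 under the combination, and 10.89 and 10.68 in control cells. MARS1 read 11.02 and 10.83 under LY2784544, 10.70 and 10.77 under GRN163L, 10.71 and 10.60 under the combination, and 10.26 and 10.37 in control cells. In each of these 3 genes the LY2784544 arrays were the highest of their experiment and the control arrays the lowest. Their log2 changes with LY2784544 were 0.64 for AARS1 (SE 0.169, limma adjusted p 0.132), 0.63 for GARS1 (SE 0.159, adjusted p 0.117) and 0.61 for MARS1 (SE 0.153, adjusted p 0.116).

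**Figure D1:**
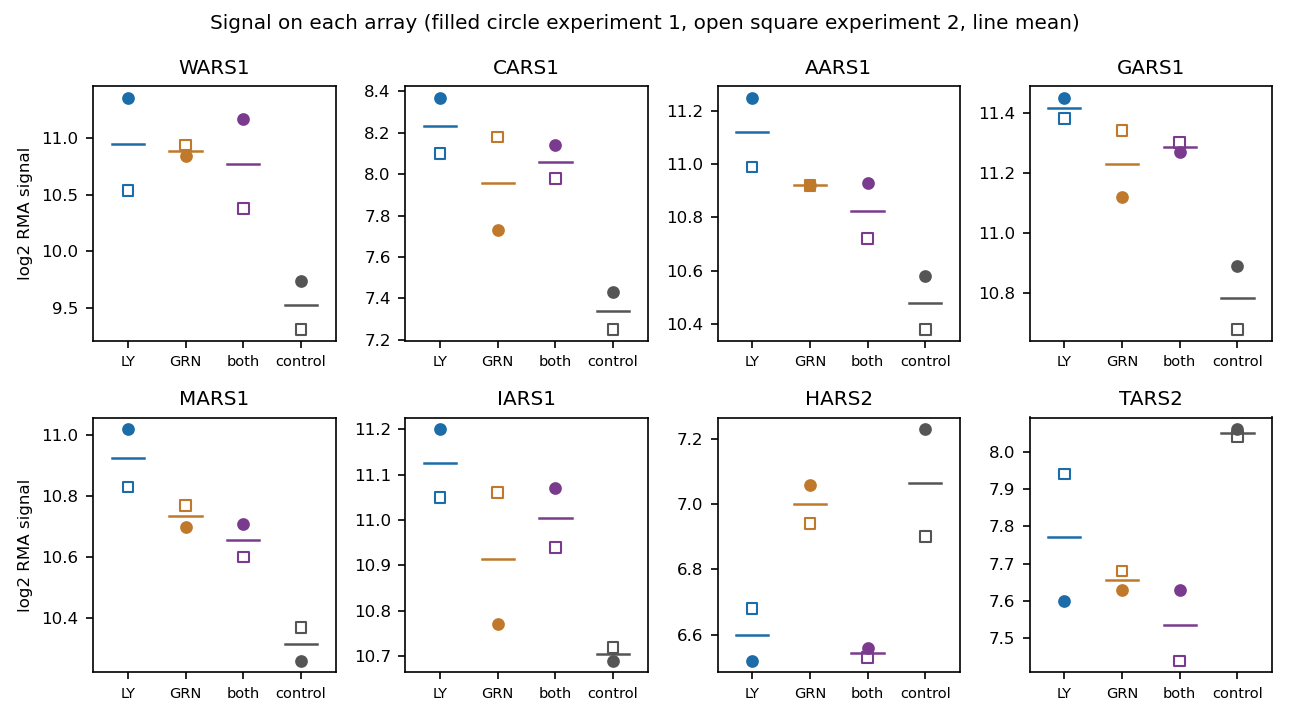
Log2 RMA signal of 8 synthetase genes on each array, for cells given LY2784544 (LY), GRN163L (GRN), both agents (both) and vehicle (control), with filled circles for experiment 1, open squares for experiment 2 and a line at each group's mean of 2 arrays. In WARS1, CARS1, AARS1, GARS1, MARS1 and IARS1 every treated array lies above both control arrays, and in TARS2 every treated array lies below them. Each panel has its own vertical range, which does not start at 0.

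The remaining cytosolic genes differed less. IARS1, the isoleucyl enzyme, read 11.20 and 11.05 under LY2784544, against 10.69 and 10.72 in control cells, and NARS1, the asparaginyl enzyme, 11.57 and 11.35 against 11.08 and 11.09. IARS1 and NARS1 differed by 0.42 and 0.38 on the log2 scale, with adjusted p-values of 0.317 and 0.368 in limma. YARS1, LARS1, EPRS1, TARS1 and SARS1 had log2 changes between 0.12 and 0.35, and the other 7 genes (FARSA, FARSB, HARS1, KARS1, QARS1, RARS1 and VARS1) lay between -0.14 and 0.07. FARSA and FARSB encode the subunits of a single enzyme, phenylalanyl-tRNA synthetase, and differed by 0.07 and -0.14.

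Of the mitochondrial genes, HARS2, the histidyl enzyme, read 6.52 and 6.68 under LY2784544, 7.06 and 6.94 under GRN163L, 6.56 and 6.53 under the combination, and 7.23 and 6.90 in control cells. The LY2784544 and combination arrays of HARS2 lay below both control arrays. Its log2 change with LY2784544 was -0.47 (SE 0.168, limma adjusted p 0.273). IARS2 and WARS2, the mitochondrial isoleucyl and tryptophanyl enzymes, differed by -0.66 and -0.61 (adjusted p 0.367 and 0.440), and mainly in experiment 1. IARS2 read 7.37 and 8.03 under LY2784544, against 8.37 and 8.34 in control cells. Thus the LY2784544 array of experiment 1 differed from its control by -1.0, and that of experiment 2 by -0.31. The other 12 mitochondrial genes lay between -0.28 and 0.08, among them LARS2 (-0.15), PARS2 (-0.13), MARS2 (-0.09) and RARS2 (0.08), the leucyl, prolyl, methionyl and arginyl enzymes.

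In all, 0 of the 35 synthetase genes were called at an adjusted p under 0.05 for LY2784544 in limma without the block, where 0.39% of the 12570 tested genes were called higher and 0.883% lower. With the replicate block 1 of the 35 (WARS1) was called, where 0.788% of all genes were called higher. At an unadjusted p under 0.05 there were 9 synthetase genes, against 13.2% of all genes. These 9 were 7 cytosolic genes, all higher, and 2 mitochondrial genes, both lower.

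The classes differed in direction. With LY2784544, 16 of 19 cytosolic genes were higher and 12 of 15 mitochondrial genes were lower than in control cells. Of all 12570 genes tested, 5463 were higher and 7073 lower. In both experiments 12 of 19 cytosolic genes were higher (3133 of all genes) and 8 of 15 mitochondrial genes were lower (4490 of all genes). The median log2 change was 0.23 over the cytosolic genes and -0.15 over the mitochondrial genes, beside -0.04 over all genes tested. Both LY2784544 arrays exceeded both control arrays for 10 cytosolic genes (52.6%), where 17% of all genes did so, and for 6 mitochondrial genes (40%) both lay below both control arrays, where 25.2% of all genes did so. The cytosolic median minus the mitochondrial median was 0.38 over both experiments, 0.51 in experiment 1 and 0.36 in experiment 2. It had the same sign in both, but it was 0.25 without the experiment 1 arrays of LY2784544 and the combination. Without the control array of experiment 2 it was 0.21, and without that of experiment 1 0.58. Without the LY2784544 array of experiment 1 it was 0.25, and without that of experiment 2 0.57. The experiment 1 arrays of LY2784544 and the combination had the lowest medians over all tested genes, 7.33 and 7.23. The other 6 arrays lay between 7.36 and 7.51. The part of the 2 low arrays in the result was not tested. Setting all arrays to one median moved the median change of all genes to 0.06 for LY2784544 and to 0.11 for the combination, and the cytosolic and mitochondrial medians for LY2784544 to 0.33 and -0.05. Then 17 of 19 cytosolic genes were higher and 9 of 15 mitochondrial genes lower.

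**Figure D2:**
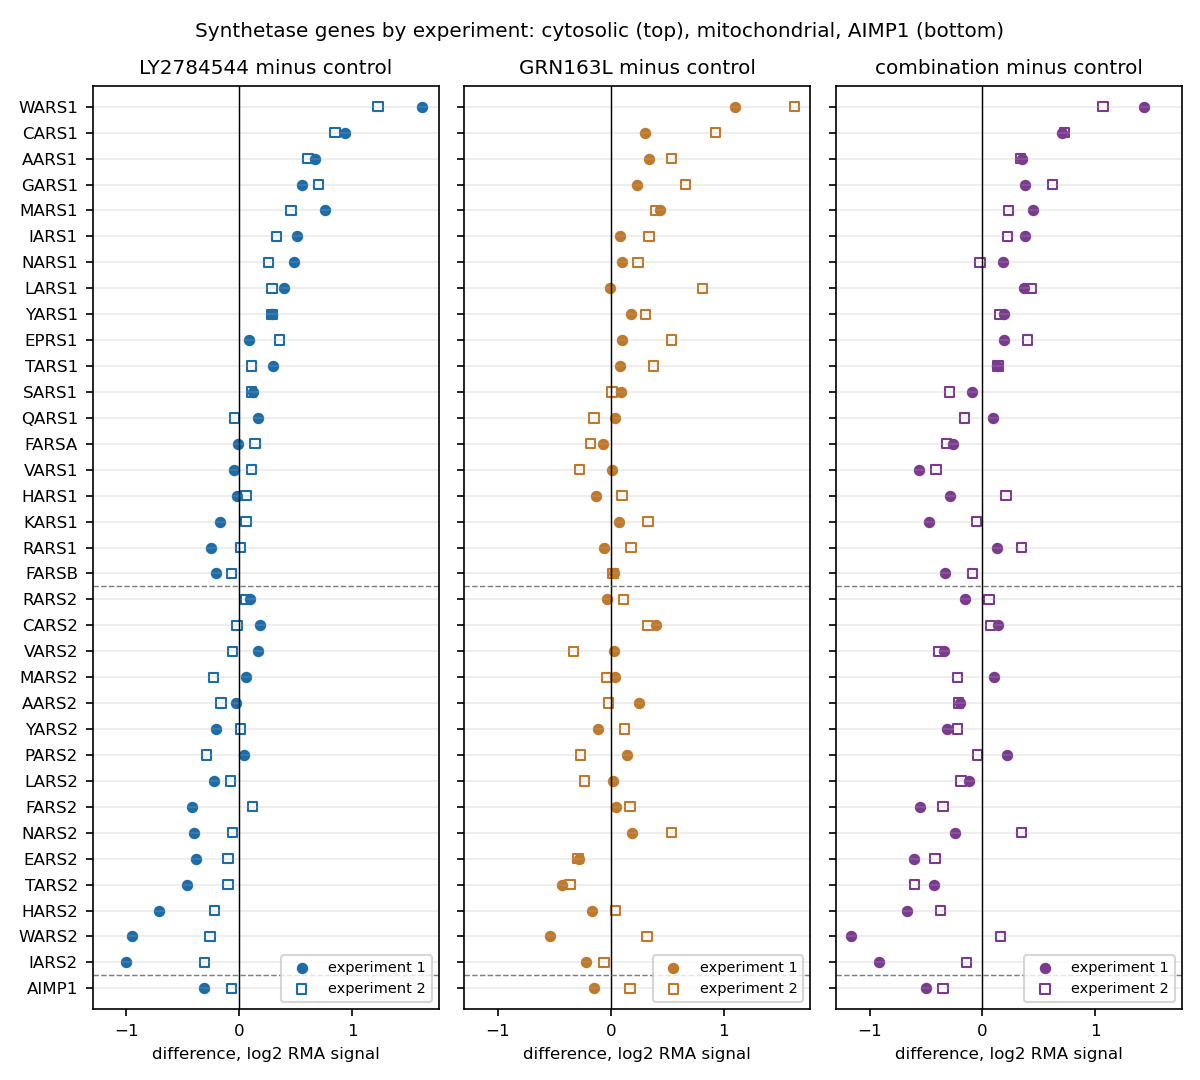
Difference from the control array of the same experiment, in log2 RMA signal (horizontal axis), for the 35 measured genes, in 3 panels for LY2784544, GRN163L and the combination. Filled circles are experiment 1 and open squares experiment 2, dashed lines part the 19 cytosolic genes (top) from the 15 mitochondrial genes and AIMP1 (bottom). Genes are ordered within each class by their LY2784544 change. WARS1 to MARS1 lie right of 0 in both experiments in all 3 panels, and with LY2784544 HARS2, WARS2 and IARS2 lie farther left in experiment 1 than in experiment 2.

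GRN163L gave the same leading cytosolic genes the smallest p-values, and no synthetase passed the test. WARS1 had a log2 change of 1.37 (SE 0.325, 2.58-fold, limma adjusted p 0.683, or 0.218 with the replicate block). CARS1 differed by 0.62 (SE 0.197, adjusted p 0.991), GARS1 by 0.45, AARS1 by 0.44 and MARS1 by 0.42 (adjusted p 0.995 for each). In all 5 genes both GRN163L arrays exceeded both control arrays. For CARS1, GARS1, AARS1 and WARS1 the difference was larger in experiment 2, as in LARS1, the leucyl enzyme, which read 9.58 and 10.01 under GRN163L, against 9.59 and 9.20 in control cells. For LARS1 experiment 1 thus showed no difference.

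Of the mitochondrial genes, CARS2 and TARS2 had the smallest p-values with GRN163L. CARS2, the mitochondrial cysteinyl enzyme, read 9.15 and 9.17 under GRN163L, 8.93 and 8.82 under LY2784544, 8.89 and 8.91 under the combination, and 8.75 and 8.84 in control cells. Its GRN163L arrays were the highest of all 8, and its log2 change with GRN163L was 0.37 (SE 0.144, limma adjusted p 0.995). NARS2, the asparaginyl enzyme, also differed by 0.37. TARS2, the threonyl enzyme, read 7.60 and 7.94 under LY2784544, 7.63 and 7.68 under GRN163L, 7.63 and 7.44 under the combination, and 8.06 and 8.04 in control cells. All 6 treated TARS2 arrays were below both control arrays, with a log2 change of -0.40 (SE 0.169, adjusted p 0.995) for GRN163L.

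Of the 35 synthetase genes, 0 were called for GRN163L in limma, with or without the replicate block, and without it the share called over all genes was 0% in each direction. At an unadjusted p under 0.05 there were 7 synthetase genes, of which 6 were higher, where 4.73% of all genes lay under it. The cytosolic median was 0.21, with 15 of 19 genes higher, and the mitochondrial median was -0.07, with 8 of 15 lower, beside 0.01 over all genes. In both experiments 13 of 19 cytosolic genes were higher (3202 of all 12570 genes) and 3 of 15 mitochondrial genes were lower (3071 of all genes). Arrays did not overlap for 10 cytosolic genes that were higher (52.6%, against 17.5% of all genes) and for 3 mitochondrial genes that were lower (20%, against 16.4% of all genes). The cytosolic minus mitochondrial difference was 0.28 in all, 0.06 in experiment 1 and 0.35 in experiment 2, so it was small in experiment 1, and 0.18 without the control array of experiment 2.

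In cells given the combination, WARS1, CARS1 and GARS1 had the smallest p-values among the higher genes, and 12 of 15 mitochondrial genes were lower than in control cells. WARS1 had a log2 change of 1.25 (SE 0.325, 2.38-fold, limma adjusted p 0.0717), and with the replicate block its adjusted p was 0.0166, so it rose in that fit. CARS1 differed by 0.72 (SE 0.197, adjusted p 0.0804, and 0.0503 with the block) and GARS1 by 0.50 (SE 0.159, adjusted p 0.114). AARS1 and MARS1 differed by 0.35 and 0.34. HARS2 and TARS2 each lay 0.52 below control on the log2 scale (adjusted p 0.119 and 0.122).

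EARS2, the mitochondrial glutamyl enzyme, read 6.39 and 6.72 under LY2784544, 6.49 and 6.53 under GRN163L, 6.16 and 6.40 under the combination, and 6.77 and 6.82 in control cells. In EARS2 the combination arrays were the lowest of each experiment (log2 change -0.52, SE 0.172, limma adjusted p 0.125). FARS2, the mitochondrial phenylalanyl enzyme, read 6.64 and 6.65 under the combination, against 7.19 and 7.0 in control cells (log2 change -0.45, adjusted p 0.164). AIMP1, a scaffold of the multi-synthetase complex, read 7.2 and 7.23 under the combination, 7.39 and 7.51 under LY2784544, 7.55 and 7.75 under GRN163L, and 7.70 and 7.58 in control cells. Its combination arrays were the lowest of all 8 (log2 change -0.43 against control, SE 0.154, adjusted p 0.149). Among the cytosolic genes VARS1, the valyl enzyme, was lower, with 8.93 and 9.25 under the combination, against 9.49 and 9.66 in control cells (log2 change -0.49, adjusted p 0.167).

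Without the block 0 of the 35 genes were called for the combination in limma, where 0.756% of all genes were called higher and 2.71% lower. With the block 1 (WARS1) was called, where 2.84% of all genes were called higher and 8.15% lower. At an unadjusted p under 0.05 there were 10 synthetase genes, 3 of them higher, against 23.1% of all genes, so the members' share was close to that of all genes. The cytosolic median was 0.17, with 12 of 19 higher, and the mitochondrial median -0.27, with 12 of 15 lower, beside -0.07 over all genes. In both experiments 11 of 19 cytosolic genes were higher (3442 of all 12570 genes) and 9 of 15 mitochondrial genes were lower (5036 of all genes). Arrays did not overlap for 10 cytosolic genes that were higher (52.6%, against 21.5% of all genes) and for 7 mitochondrial genes that were lower (46.7%, against 32.2% of all genes). The cytosolic minus mitochondrial difference was 0.44 in all, 0.49 in experiment 1 and 0.42 in experiment 2. All arrays at one median gave a cytosolic median of 0.35 and a mitochondrial one of -0.09. Then 14 of 19 cytosolic genes were higher, and 9 of 15 mitochondrial genes were lower and 6 higher.

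The 7 genes of the multi-synthetase complex and the 12 free cytosolic genes had medians near each other for the single agents. For LY2784544 the median log2 change was 0.23 over the complex genes, with 5 of 7 higher, and 0.25 over the free genes, with 11 of 12 higher. For GRN163L the medians were 0.21 (6 of 7 higher) and 0.20 (9 of 12 higher). For the combination they were 0.30 (5 of 7 higher) and 0.11 (7 of 12 higher), the widest gap of the 3. Within the complex, MARS1, IARS1, LARS1 and EPRS1 were higher with each treatment, while QARS1, the glutaminyl enzyme, differed by 0.07, -0.06 and -0.04 under LY2784544, GRN163L and the combination.

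For 12 amino acids the cytosolic and the mitochondrial gene were both measured under matching symbols. With LY2784544 the cytosolic gene was higher and the mitochondrial one lower in 9 of the 12 pairs, the reverse held in 1 (RARS1 and RARS2, at -0.12 and 0.08), and 2 pairs had the same direction. The cytosolic gene was higher and the mitochondrial one lower in 4 pairs with GRN163L and in 8 with the combination, while 7 and 4 pairs had the same direction. Pairs were counted only with the arrays as deposited, and some rest on small changes, as in AARS2, MARS2 and YARS2 (-0.095, -0.085 and -0.10 with LY2784544). Setting all arrays to one median left 9 of 15 mitochondrial genes lower, from 12, for LY2784544 and likewise for the combination. With LY2784544 WARS1 differed from control by 1.43 and WARS2 by -0.61, IARS1 by 0.42 and IARS2 by -0.66, and NARS1 by 0.38 and NARS2 by -0.23. CARS1 and CARS2 were both higher, at 0.90 and 0.08 with LY2784544 and at 0.62 and 0.37 with GRN163L. HARS1 and HARS2 differed by 0.02 and -0.47 under LY2784544, and by -0.04 and -0.52 under the combination. HARS1 read 9.36 and 9.52 under LY2784544, 9.25 and 9.56 under GRN163L, 9.09 and 9.67 under the combination, and 9.38 and 9.46 in control cells, with groups that overlap.

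HARS1 and HARS2 lie head to head on chromosome 5, and the interval between their transcription starts, at 140691370 and 140691455, holds 84 bases. It is shown, chosen after the values were seen, because so short a stretch lies between 2 genes whose values differed. It is in lower case throughout, since no core was found in it, and reads from the HARS1 start to the HARS2 start:
HARS1 to HARS2 interval (chr5:140691371-140691454, plus strand): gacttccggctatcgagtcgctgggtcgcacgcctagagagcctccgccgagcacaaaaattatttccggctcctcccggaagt

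Adding GRN163L to LY2784544 lowered no synthetase past the threshold, and the cytosolic genes lay mostly a little below their level with LY2784544 alone. VARS1 read 8.93 and 9.25 under the combination, against 9.44 and 9.77 with LY2784544 (log2 change -0.52, SE 0.185, limma adjusted p 0.275). VARS2, the mitochondrial valyl enzyme, read 6.34 and 6.42 under the combination, against 6.85 and 6.75 with LY2784544 (log2 change -0.42, SE 0.157, adjusted p 0.297). In both valyl genes the combination arrays were below both LY2784544 arrays. FARSA differed by -0.36 (adjusted p 0.349), NARS1 by -0.30 (adjusted p 0.471) and MARS1 by -0.27 (adjusted p 0.489).

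In this comparison 0 of 35 genes were called in limma, where 0.0796% of all genes were called higher and 0.231% lower, and 3 had an unadjusted p under 0.05, where 13.5% of all genes did. The cytosolic median was -0.13, with 16 of 19 lower and 12 of 12 of the free ones, and the mitochondrial median was -0.06, beside -0.02 over all genes. With all arrays at one median 13 of 19 cytosolic genes were lower, and the mitochondrial median turned to 0.02. Arrays did not overlap for 9 cytosolic genes that were lower (47.4%, against 22.8% of all genes) and for 1 that was higher (5.26%, against 18.9% of all genes). With all arrays at one median 3 cytosolic genes that were lower did not overlap (15.8%, against 17.4% of all genes), and with quantile normalization 4 (21.1%, against 20.9%), so under both scalings the share was near that of all genes. The 5 erythroid and megakaryocytic genes GATA1, TAL1, KLF1, NFE2 and ITGA2B were lower as well in this comparison, in both experiments, with a median of -0.12. Arrays did not overlap for 4 of the 5, but for 2 with all arrays at one median and for 2 with quantile normalization. At one median 4 of the 5 were lower, 3 in both experiments, with a median of -0.05. The part of these genes in the result was not tested. The cytosolic minus mitochondrial difference was -0.08, and -0.15 and -0.07 in experiments 1 and 2, and it turned to 0.06 without the LY2784544 array of experiment 1 and to 0.07 without the combination array of experiment 2.

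With LY2784544 added to GRN163L, WARS1, CARS1, AARS1, GARS1 and MARS1 had mean log2 differences of -0.12, 0.11, -0.10, 0.06 and -0.08 from GRN163L alone, and most mitochondrial genes were lower. In WARS1 and CARS1 these means join opposite differences, 0.33 and 0.41 in experiment 1 and -0.56 and -0.20 in experiment 2. FARS2 read 6.64 and 6.65 under the combination, against 7.24 and 7.17 with GRN163L (log2 change -0.56, SE 0.171, limma adjusted p 0.201). KARS1, the lysyl enzyme of both compartments, read 9.41 and 9.59 under the combination, against 9.95 and 9.97 with GRN163L (log2 change -0.46, SE 0.158, adjusted p 0.251). AIMP1, HARS2 and AARS2, the mitochondrial alanyl enzyme, differed by -0.44, -0.46 and -0.32 (adjusted p 0.262, 0.279 and 0.400). In all 5 genes both combination arrays were below both GRN163L arrays.

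For this comparison 0 of 35 genes were called in limma, where 0.0716% of all genes were called higher and 0.469% lower, and 4 had an unadjusted p under 0.05, where 14.4% of all genes did. The mitochondrial median was -0.26, with 14 of 15 lower, and the cytosolic median -0.08, with 13 of 19 lower, beside -0.09 over all genes. In both experiments 11 of 15 mitochondrial genes, 5 of 19 cytosolic genes and 5575 of all 12570 genes were lower. With all arrays at one median 10 of 15 mitochondrial genes were lower and the cytosolic direction turned, with 15 of 19 higher. Arrays did not overlap for 8 mitochondrial genes that were lower (53.3%, against 31.3% of all genes) and for 1 that was higher (6.67%, against 14.4% of all genes). The mitochondrial genes that were lower without overlap numbered 3 with all arrays at one median (20%, against 14.7% of all genes) and 5 with quantile normalization (33.3%, against 21.1%). The cytosolic minus mitochondrial difference was 0.18, but 0.38 in experiment 1 and 0.02 in experiment 2, and it turned to -0.02 without the combination array of experiment 1.

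In the leading cytosolic genes the combination lay under the sum of the single-agent changes, but none passed the test. The interaction is the log2 change of the combination minus the sum of both single-agent changes, and below 0 the combination lies under that sum. For WARS1 the single-agent changes summed to 2.79, the combination gave 1.25, and the interaction was -1.54 (SE 0.460, limma adjusted p 0.945). For CARS1 the sum was 1.51 and the interaction -0.79 (adjusted p 0.999), and for AARS1, MARS1 and GARS1 the interaction was -0.74, -0.69 and -0.58 (adjusted p 0.999, 0.998 and 0.999). In EARS2 the combination lay close to the sum, with an interaction of 0.01 (0.05 and -0.03 in experiments 1 and 2). In HARS2 it was also 0.01, but this mean joins opposite values, 0.21 in experiment 1 and -0.19 in experiment 2. RARS1, the arginyl enzyme, was the only cytosolic gene above 0 with the arrays as deposited, at 0.30.

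Of the 35 genes 0 were called for the interaction in limma, where the share over all genes was 0% in each direction, and 5 had an unadjusted p under 0.05, where 3.69% of all genes did. These 5 were all cytosolic and all below 0. The median interaction was -0.36 over the cytosolic genes, with 18 of 19 below 0, and 0.01 over the mitochondrial genes, beside -0.03 over all genes. With all arrays at one median 16 of 19 cytosolic genes were below 0. The cytosolic minus mitochondrial difference was -0.37, with -0.29 in experiment 1 and -0.42 in experiment 2. It came to -0.15 without the LY2784544 array of experiment 1 and to -0.12 without the combination array of experiment 2. The interaction uses the same control arrays as the single-agent changes, so these values are not independent of them. The leading genes were named for small p-values in those changes, which enter the interaction with a minus sign. Naming them so favours an interaction on the side opposite to their changes.

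**Figure D3:**
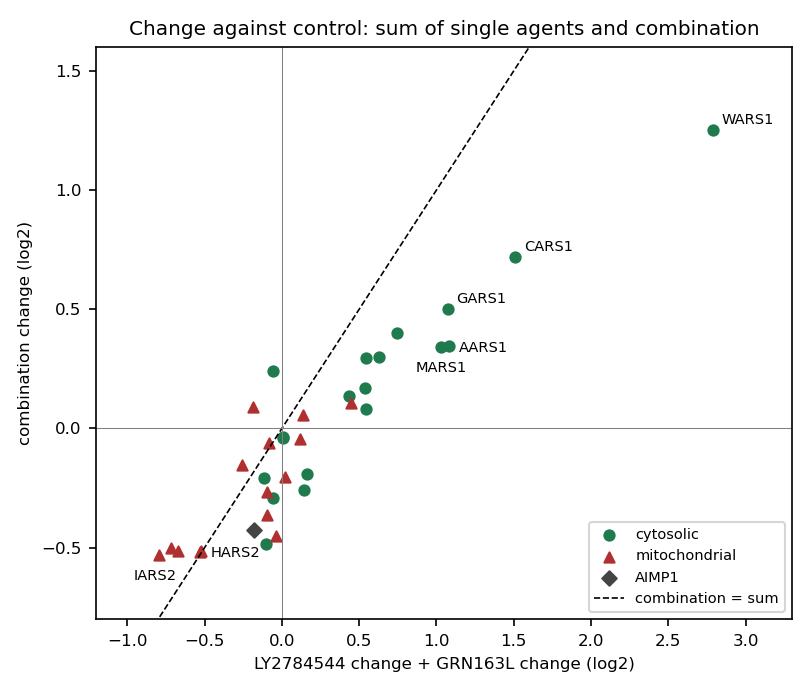
Log2 change of the combination against control (vertical axis) set against the sum of the LY2784544 and GRN163L changes (horizontal axis), 1 point for each of the 35 genes, as circles for cytosolic, triangles for mitochondrial synthetases and a diamond for AIMP1. On the dashed line the combination equals the sum; 18 of 19 cytosolic genes lie below it, WARS1 farthest, at a sum of 2.79 and a combination change of 1.25. The horizontal and vertical axes share the same control arrays.

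Other genes of the ATF4 response were mostly higher as well, and some passed the test. Of 31 listed genes 29 were tested, and with LY2784544 26 of them were higher and 5 rose in limma at an adjusted p under 0.05 (7 with the replicate block), with a median log2 change of 0.53, where 0.39% of all genes were called higher, and 0.788% with the block. These were CHAC1, a glutathione-degrading enzyme (1.34, adjusted p 0.0143), SLC7A11, a cystine transporter (1.28, adjusted p 0.0268), JDP2, a bZIP transcription factor (1.12, adjusted p 0.0294), SESN2, an mTORC1 inhibitor (1.30, adjusted p 0.0362), and PSAT1 of serine synthesis (1.37, adjusted p 0.0472). With GRN163L 27 were higher and 0 were called in limma, with 13 at an unadjusted p under 0.05, where 4.73% of all genes lay under it, and a median of 0.46. The smallest p-values with GRN163L were those of SLC7A11 (1.09, adjusted p 0.493), PSPH of serine synthesis (1.21, adjusted p 0.588), JDP2 (0.83, adjusted p 0.594) and DDIT4, an mTORC1 inhibitor (0.95, adjusted p 0.739). With the combination 21 were higher and 2 rose (5 with the block), SLC7A11 (1.37, adjusted p 0.0155) and JDP2 (0.96, adjusted p 0.0342), with a median of 0.28, where 0.756% of all genes were called higher, and 2.84% with the block. With the block PSPH, CHAC1 and SESN2 also passed for the combination (1.01, 0.70 and 0.75), and SLC7A5, an amino acid transporter, for LY2784544 (0.87). Lower with the combination were 8 of the 29 genes, 2 of them without overlap (6.9%, against 32.2% of all genes). Of these TRIB3 differed most, by -0.545, and read 6.40 and 6.54, against 6.73 and 7.30 in control cells. The 3 lower genes for LY2784544 were ALDH1L2 (-0.665), VLDLR (-0.595) and PPP1R15A (-0.09), none called in limma. The median interaction of the list was -0.82, with 27 of 29 genes below 0 and 0 called in limma (16 at an unadjusted p under 0.05, where 3.69% of all genes lay under it). Here too the interaction uses the same control arrays as the single-agent changes, so it is not independent of them.

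The ATF4 transcript itself read 11.05 and 11.03 under LY2784544, 10.82 and 10.69 under GRN163L, 11.03 and 10.90 under the combination, and 10.52 and 10.59 in control cells, so every treated array exceeded both control arrays. ASNS, asparagine synthetase, an amino acid enzyme and not a transfer RNA synthetase, read 9.14 and 8.45 under LY2784544, 8.11 and 8.59 under GRN163L, 8.28 and 7.87 under the combination, and 7.54 and 6.69 in control cells. For LY2784544 its adjusted p was 0.0582, and 0.0235 with the block. The array measured RNA and not the phosphorylation of eIF2. Of the 4 eIF2 kinase genes none was called in limma for any treatment without the block. EIF2AK1, EIF2AK2, EIF2AK3 and EIF2AK4 lay between -0.15 and 0.02 with LY2784544 and between -0.05 and 0.09 with GRN163L. EIF2AK2 (PKR) was lower with the combination, by -0.55 (limma adjusted p 0.163, and 0.0449 with the block). It was 1 of 4 kinase genes called lower with the block, where 8.15% of all genes were.

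**Figure D4:**
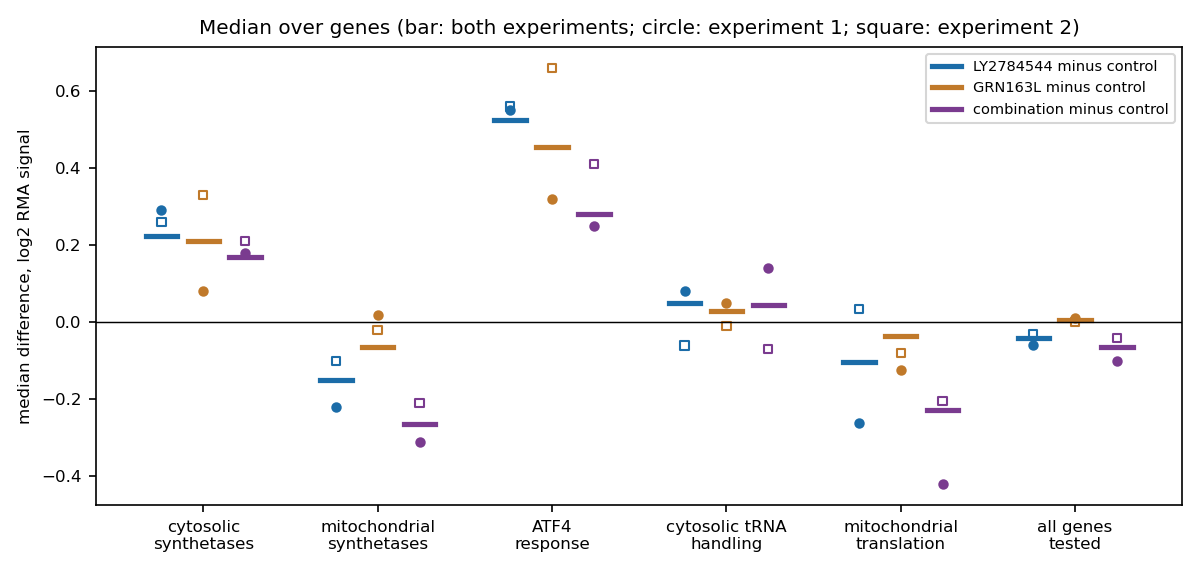
Median log2 difference from control over the genes of each list (vertical axis), for LY2784544, GRN163L and the combination in 6 lists along the horizontal axis. Bars are medians of the genes' changes over both experiments, circles and squares the medians within experiments 1 and 2, which need not enclose the bar. The ATF4 response list lies highest, at 0.53, 0.46 and 0.28, the cytosolic synthetases at 0.23, 0.21 and 0.17, and the mitochondrial synthetases below 0.

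The other steps of cytosolic transfer RNA handling and elongation had medians near that of all genes. Of 18 listed genes 15 were tested, and the median log2 change was 0.05, 0.03 and 0.05 for LY2784544, GRN163L and the combination, with none called in limma without the block. XPOT, the transfer RNA export receptor, which is also in the ATF4 list, differed by 0.34, 0.28 and 0.40. The other genes with the smallest p-values for LY2784544 were EEF1B2 (0.36), DTD1 (-0.27) and EEF2 (0.25), and for GRN163L TRNT1 (0.30), ELAC1 (0.51) and EEF2K (0.23). With LY2784544 EEF1B2 differed by 0.77 in experiment 1 but by -0.06 in experiment 2. With the combination DTD1, a D-aminoacyl-tRNA deacylase, was lower by -0.56 (limma adjusted p 0.0828) and passed with the block (0.0450). DTD1 was 1 of 15 genes called lower with the block, where 8.15% of all genes were, so the share was near that of all genes. EEF1D, an elongation factor subunit, and EIF2S1, the alpha subunit of eIF2, each differed by -0.50 (limma adjusted p 0.0981 and 0.296).

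The mitochondrial translation list, which leaves out the synthetases, also held genes of mitochondrial RNA and DNA handling, among them TRMT10C, HSD17B10, TFAM and POLRMT. Of 22 listed genes 20 were tested. Their medians were -0.10, -0.04 and -0.23 for LY2784544, GRN163L and the combination, beside -0.15, -0.07 and -0.27 in the mitochondrial synthetases. With all arrays at one median these list medians were 0.00, -0.05 and -0.05. None was called in limma without the block. For LY2784544 the smallest p-values were those of PTCD1 (0.42), GTPBP3 (0.29), MRRF (-0.41) and PRORP (-0.28), with limma adjusted p-values from 0.321 for PTCD1 to 0.639 for PRORP. PTCD1 differed by 0.42 in each experiment. GTPBP3, MRRF and PRORP differed by 0.61, -0.87 and -0.56 in experiment 1 but by -0.04, 0.06 and 0 in experiment 2. For GRN163L the smallest p-values were those of HSD17B10 (-0.49), POLRMT (-0.40), QRSL1 (0.34) and PRORP (-0.28), at a limma adjusted p of 0.995 each. QRSL1 read 7.67 and 8.18 under GRN163L, against 7.88 and 7.29 in control cells, so its experiments went in opposite directions. With the combination 16 of 20 were lower, where 7194 of all 12570 genes were, but with all arrays at one median 10 of 20 were lower. With the block 3 passed as lower, where 8.15% of all genes did. These were TRMT10C and HSD17B10, subunits of mitochondrial RNase P, at -0.74 (adjusted p 0.275, and 0.0226 with the block) and -0.74 (adjusted p 0.0891, and 0.0322 with the block), and TFAM, a mitochondrial DNA-binding factor, at -0.64 (adjusted p 0.197, and 0.0447 with the block). POLRMT, the mitochondrial RNA polymerase, differed by -0.66 (adjusted p 0.111) and TUFM, the mitochondrial elongation factor Tu, by -0.41 (adjusted p 0.167). GATB, a subunit of the amidotransferase that makes mitochondrial glutaminyl-tRNA from the product of EARS2, differed by -0.51 (adjusted p 0.128).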

How the data were processed

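Total RNA of HEL cells was hybridised to 8 Affymetrix arrays. The deposited values are log2 RMA signals that the authors made with Affymetrix Expression Console, per the submitters' processing notes; neither its version nor its annotation is given in the sources used here. RMA quantile-normalizes the arrays to each other, so a shift shared by most genes can be lost. The array medians over the tested genes still ran from 7.23 to 7.51. Of 33297 probe sets 19181 name 1 gene, 2055 several and 12061 none in the platform annotation used here, and 19143 of the 19181 matched RefSeq by gene number. Each gene took its brightest 1-gene probe set. Genes with a mean signal under the 30th percentile (4.37) were left out, and 12570 remained. The number of arrays limits the precision: there were 4 residual degrees of freedom, with 4.65 added by limma's moderation.

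Group means were fitted over all 8 arrays with limma 3.58.1 in R 4.3.3 (lmFit and eBayes), with 6 contrasts and Benjamini-Hochberg adjustment over all 12570 genes at 0.05. The script was tested on simulated data. The labels tie replicate numbers to the separate experiments, which paired the arrays. Deviations of arrays from the same experiment correlated by 0.67 between the combination and LY2784544, 0.40 between the combination and GRN163L, 0.26 between GRN163L and LY2784544, and 0.10 to 0.19 between each treatment and control. The blocked fit, with experiment as the block, is given where it changes a call.

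The members and lists were chosen with earlier results of these data known. Every member is accounted for, and named with statistics are those called in a contrast or, with fewer than 5 called, the 5 with the smallest p-values; in the other lists, those called or else the 4 with the smallest p-values. Genes with values on every array, or named for a role or direction in a list, go beyond that rule in places. These were chosen after their values were seen. They include NARS2, LARS1, ASNS, ATF4, XPOT, TFAM, TRMT10C, SLC7A5, EIF2AK2, TRIB3, ALDH1L2, VLDLR, PPP1R15A and the HARS pair. Alternatives were no filter, a filter at the 50th percentile, arrays at one median, quantile normalization, averaged probe sets per gene, only the compared groups, the block, and arrays left out. Protein sequences were not used here. Level differences between genes were not compared, since probe sets differ in brightness.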

Additional observations from a re-analysis of the deposited data

How the results depend on the processing

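The count of changed synthetases was 0 in each of the 6 comparisons, and stayed 0 without the filter, with the filter at the 50th percentile, with arrays at one median, with quantile normalization, with averaged probe sets per gene, with only the compared groups fitted (not for the interaction, which needs all groups) and without the experiment 1 arrays of LY2784544 and the combination. The replicate block, which pairs arrays of the same experiment, gave 1 changed synthetase, WARS1, for LY2784544 and 1, WARS1, for the combination; it changed no other synthetase's call. Leaving out 1 array at a time gave between 0 and 1 for LY2784544 and for the combination: WARS1 was called for LY2784544 without the LY2784544 array of experiment 2 or without either combination array, and for the combination without either LY2784544 array or without the combination array of experiment 2. A group left with 1 array was assumed to vary like the others. The cytosolic minus mitochondrial difference ranged, over single arrays left out, from 0.21 to 0.58 for LY2784544, from 0.18 to 0.28 for GRN163L, from 0.34 to 0.53 for the combination, from -0.19 to 0.07 for the combination against LY2784544, from -0.015 to 0.33 for the combination against GRN163L and from -0.47 to -0.12 for the interaction. Signs turned without the LY2784544 array of experiment 1 (0.06) or the combination array of experiment 2 (0.07), both against LY2784544, and without the combination array of experiment 1 (-0.015), against GRN163L. Without the experiment 1 arrays of LY2784544 and the combination it was 0.25 for LY2784544, 0.34 for the combination and -0.015 for the combination against GRN163L. The cause of these changes was not tested. Counts of genes past both control arrays, an alternative chosen after seeing the data, stayed within 1.5 times under the 2 scalings. Cytosolic genes above both numbered 10 for LY2784544 (17% of all genes), 14 with arrays at one median (28.3%) and 12 with quantile normalization (23%). Without the 2 arrays of experiment 1 the count was 14, but only 1 LY2784544 array then had to exceed the controls. Under that looser rule the count could not fall, so it cannot show stability, and the share of all genes was not counted. For the combination, the 9 cytosolic genes below both LY2784544 arrays became 3 and 4 under those scalings, and the 8 mitochondrial genes below both GRN163L arrays 3 and 5. With 2 arrays a group, differences of the size seen in most synthetases could not be told from the spread between arrays.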

Other observations

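SARS2, the mitochondrial seryl-tRNA synthetase, was covered only by 2 probe sets that also carry the name of MRPS12, a mitochondrial ribosomal protein, so their signal cannot be assigned to either gene. The first read 6.45 and 6.56 under the combination, 7.05 and 7.32 under LY2784544, 6.86 and 6.84 under GRN163L, and 6.98 and 7.63 in control cells. The second read 8.14 and 8.53 under the combination, 8.71 and 8.94 under LY2784544, 8.97 and 8.79 under GRN163L, and 9.25 and 9.16 in control cells. Both had their lowest arrays in the combination, at -0.80 and -0.87 from control on the log2 scale. VARS1 had 2 probe sets of its own whose values were identical on all 8 arrays, and the 2 of VARS2 differed by at most 0.09.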
